A study of Mus musculus with 10 samples.

Results

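The expression of 10 imprinted genes, Dlk1, Igf2, Mest, Plagl1, Peg3, Peg10, Igf2r, Grb10, Cdkn1c and H19, was followed after loss of single subunits of the INO80 chromatin remodelling complex in mouse embryonic stem cells. The genes were taken from a fixed list of names, and every probe carrying one of these names, directly or through its accession, was collected. All 10 genes had probes, 18 of the 41174 on the array, and all were among the 20661 genes tested. The cells were J1, a mouse embryonic stem cell line kept in ESGRO medium and moved to M15 medium for the transfection. They received a small interfering RNA (siRNA) that was non-targeting (NT) or directed at Ino80, the ATPase of the complex, or at its accessory subunits Ino80b, Ino80c or Ino80e. RNA was collected 96 hours later, on day 4, from 2 samples per group, biological replicates according to the design text, and hybridised to 1 Agilent array per sample, read in 1 colour. The cells of all groups were transfected, no untransfected sample was among those analysed, and an siRNA lowers its target without removing it. The 2 NT arrays lay on slide 1, the Ino80 and Ino80b arrays on slide 2, and the Ino80c and Ino80e arrays on slide 3, so that in any comparison with NT the slide and the knockdown cannot be told apart. Only Ino80 versus Ino80b and Ino80c versus Ino80e were compared within a slide.

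An imprinted gene is expressed mainly or only from the chromosome inherited from one parent, because a nearby control region was methylated in the egg or the sperm and keeps that mark in the embryo. The mark is held through early development by DNA methyltransferases and by the zinc finger protein ZFP57, which binds methylated control regions and recruits TRIM28. Many paternally expressed genes promote growth of the fetus and placenta, and many maternally expressed genes restrain it. The arrays measured total RNA of each gene and could not separate its parental copies, and in such bulk samples fewer expressing cells and less RNA per cell cannot be told apart.

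The targeted subunits were measured at 43.6% of NT for Ino80, 24.9% for Ino80b, 19.7% for Ino80c and 43.4% for Ino80e, and the last did not pass the test (adjusted p = 0.0815). Per array, 66.4% to 79.0% of probes exceeded background clearly (the scanner's well above background flag), and the number of arrays limits the precision. Levels are log2 processed signals relative to the 75th percentile of the array, a gene is represented by its brightest probe, and a gene is called at an adjusted p under 0.05 over all genes (limma, Benjamini-Hochberg). Errors after ± are SD over n = 2 arrays for levels and standard errors of the fit for log2 fold changes. The median of all genes had a log2 fold change against NT of 0.17 with Ino80 siRNA, 0.13 with Ino80b, 0.25 with Ino80c and 0.19 with Ino80e, and the balance of calls moved with the scaling. The share of calls that were higher was 61.1% in Ino80 (39.0% when arrays were scaled to their median), 58.3% in Ino80b (46.7%) and 74.7% in Ino80c (33.5%, or 54.1% after quantile normalization). It also moved with the source of the values, to 38.0% in Ino80b and 27.8% in Ino80c in the authors' deposited table, and to 68.8% in Ino80b with normexp background correction.

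Of the 10 genes, Dlk1 rose in the knockdowns of Ino80, Ino80b and Ino80c, Cdkn1c rose in that of Ino80c, and the other 8 were not called. Of the 10 genes, 1 rose and none fell in the Ino80 knockdown, beside 12.3% of all genes called (7.49% higher, 4.76% lower). In the Ino80b knockdown 1 rose and none fell (6.44% of all genes called, 3.76% higher, 2.68% lower), and in the Ino80c knockdown 2 rose and none fell (6.28% called, 4.69% higher, 1.59% lower). In the Ino80e knockdown limma called 0 of the 10 genes and 0% of all genes, with 4 of the 10 and 5899 of 20661 genes at an unadjusted p under 0.05. Within slides 0 of the 10 genes were called in either comparison. Ino80 versus Ino80b called 0.0678% of all genes (0.00968% higher, 0.0581% lower) and had 1 of the 10 under an unadjusted p of 0.05, and Ino80c versus Ino80e called 0.0339% (0.0145% higher, 0.0194% lower) and had 3. With 10 genes, 1 call more or less decides how their share compares with that of all genes.

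The median log2 fold change of the 10 genes against NT was 0.35 in Ino80, 0.23 in Ino80b, 0.26 in Ino80c and 0.12 in Ino80e, beside medians of all genes of 0.17, 0.13, 0.25 and 0.19. The imprinted genes had no common direction. Dlk1, Mest, Igf2r, Grb10 and H19 had estimates above 0 in all 4 knockdowns, whereas Peg3 and Peg10 had estimates below 0 in all 4. The same NT arrays entered the 4 comparisons, so these directions are not independent of each other.

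**Figure D1:**
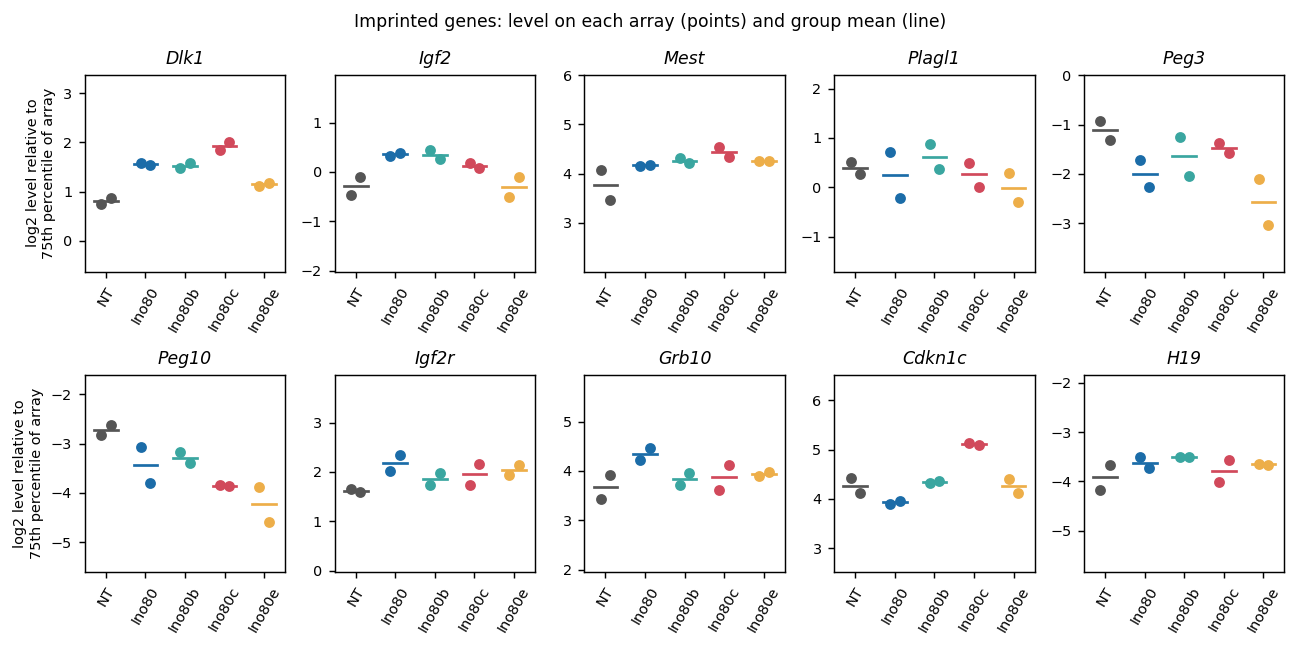
Each panel shows 1 imprinted gene, with the log2 level relative to the 75th percentile of the array on the vertical axis, the 5 siRNA groups on the horizontal axis, a point for each array and a line at the group mean. Dlk1 lies above both NT arrays in every knockdown, Cdkn1c is highest on both Ino80c arrays, and Peg10 lies below both NT arrays in every knockdown.

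**Figure D2:**
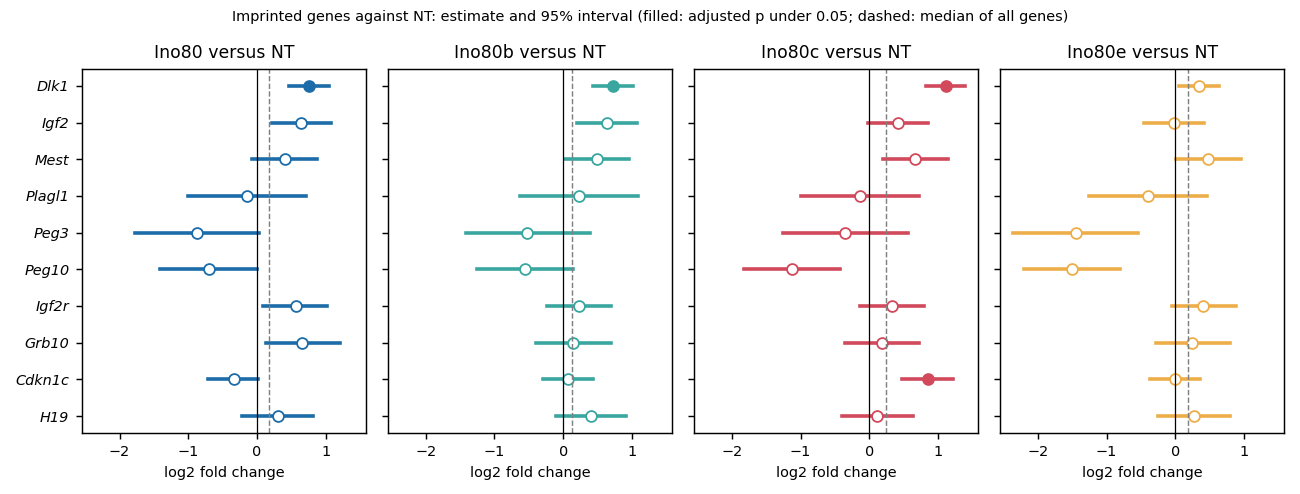
Each panel shows 1 knockdown against NT, with the log2 fold change of each imprinted gene as a point, its 95% interval as a bar, and the median of all genes as a dashed line. Filled points are adjusted p under 0.05, which holds for Dlk1 in the Ino80, Ino80b and Ino80c knockdowns and for Cdkn1c in the Ino80c knockdown.

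Dlk1 encodes a transmembrane protein related to the Notch ligands that keeps precursor cells, such as preadipocytes, from differentiating, and it is expressed from the paternal copy. Its level was 0.75 and 0.87 on the NT arrays (mean 0.81 ± 0.09), 1.58 and 1.55 in Ino80 (1.57 ± 0.02), 1.47 and 1.59 in Ino80b (1.53 ± 0.09), 1.85 and 2.0 in Ino80c (1.92 ± 0.11) and 1.12 and 1.17 in Ino80e (1.15 ± 0.03). Both arrays of each knockdown lay above both NT arrays, in the order Ino80c, Ino80, Ino80b, Ino80e and NT, and the neighbours Ino80 and Ino80b overlapped while the other neighbours did not. Dlk1 rose 1.69-fold with Ino80 siRNA (log2 fold change 0.76 ± 0.12, adjusted p = 0.0132), 1.65-fold with Ino80b siRNA (0.72 ± 0.12, adjusted p = 0.0266) and 2.17-fold with Ino80c siRNA (1.12 ± 0.12, adjusted p = 0.0175). With Ino80e siRNA its log2 fold change was 0.34 ± 0.12 (adjusted p = 0.134).

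Within slide 3, Dlk1 stood 1.72-fold above Ino80e in Ino80c, a log2 difference of 0.78 ± 0.12 that missed the threshold (adjusted p = 0.0816). With the values of the authors' deposited table the same difference was 0.74 (adjusted p = 0.0308), and with normexp background correction 0.75 (adjusted p = 0.0229), and both passed. Within slide 2 its log2 difference between Ino80 and Ino80b was 0.04 ± 0.12, with a 95% interval from -0.25 to 0.33. The Ino80 and Ino80b calls were lost when arrays were scaled to their median (0.64, adjusted p = 0.0708, and 0.68, adjusted p = 0.0786). The Ino80 call was also lost without Ino80 replicate 2 (0.77, adjusted p = 0.0609), and the Ino80c call without NT replicate 2 (1.18, adjusted p = 0.0632), Ino80c replicate 1 (1.19, adjusted p = 0.0932) or Ino80c replicate 2 (1.04, adjusted p = 0.103). The Ino80b call was also lost without NT replicate 2 (0.78, adjusted p = 0.0773), Ino80b replicate 1 (0.78, adjusted p = 0.107), Ino80b replicate 2 (0.66, adjusted p = 0.193), either Ino80c replicate (0.72, adjusted p = 0.0547) or either Ino80e replicate (0.72, adjusted p = 0.0622).

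The 2 probes of Dlk1 did not give the same change. The brighter one, which stands for the gene, lies at chr12:106981689-106981748 on build mm7, and the other at chr12:106981450-106981509, both on the plus strand. The other probe read -0.97 and -0.39 in NT, -0.36 and -0.69 in Ino80, -0.56 and -0.65 in Ino80b, -0.44 and -0.21 in Ino80c and -1.06 and -1.21 in Ino80e. Its log2 fold changes against NT were 0.16 ± 0.22, 0.08 ± 0.22, 0.36 ± 0.22 and -0.45 ± 0.22 for Ino80, Ino80b, Ino80c and Ino80e, none of them called. Its NT arrays differed more from each other than those of the brighter probe, and the Ino80, Ino80b and Ino80c arrays overlapped them, while those of Ino80e lay below. The mean of both probes fell short of the threshold for Ino80 (0.46, adjusted p = 0.102) and Ino80b (0.40, adjusted p = 0.156), and was -0.06 in Ino80e (adjusted p = 0.842). Between Ino80c and Ino80e, however, the other probe differed by 0.81 ± 0.22, close to the 0.78 of the brighter one.

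The genes taken as neighbours of Dlk1 in its imprinted cluster, the maternally expressed noncoding RNAs Meg3 and Rian, were measured too. Meg3 stood at 3.92 and 3.99 in NT, 4.66 and 4.64 in Ino80, 4.44 and 4.63 in Ino80b, 4.69 and 4.87 in Ino80c and 4.08 and 4.28 in Ino80e. It rose in the Ino80 (0.70 ± 0.14, adjusted p = 0.0234) and Ino80c knockdowns (0.82 ± 0.14, adjusted p = 0.0275), and was at 0.58 ± 0.14 in Ino80b (adjusted p = 0.0538) and 0.22 ± 0.14 in Ino80e (adjusted p = 0.321). Rian, which hosts small nucleolar RNAs, rose in the Ino80c knockdown (1.24 ± 0.25, adjusted p = 0.0364) and was at 0.71 ± 0.25, 0.63 ± 0.25 and 0.30 ± 0.25 in Ino80, Ino80b and Ino80e, none of them called. Paternally expressed Dlk1 and maternally expressed Meg3 thus both rose in the Ino80 and Ino80c knockdowns. Paternally expressed Dio3 and maternally expressed Mirg, which were not taken as neighbours, were not called. Dio3 was at 0.28, 0.30, 0.03 and 0.28 in Ino80, Ino80b, Ino80c and Ino80e, each ± 0.54. Mirg had a mean of -0.55 in NT and of 0.02, 0.03, 0.42 and -0.61 in these knockdowns. Within slide 3, Meg3 differed by 0.60 (adjusted p = 0.174) and Rian by 0.94 (adjusted p = 0.215) between Ino80c and Ino80e, and neither was called. The Meg3 calls held in 12 of 19 alternatives for Ino80 and in 9 for Ino80c, and the Rian call in 8. The other 4 probes of Meg3 ranged from 0.40 to 0.69 in Ino80 and from 0.44 to 1.12 in Ino80c and were not called. In Ino80e they lay between -0.27 and -0.16, against 0.22 for the probe that stands for the gene.

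The 3 genes whose levels followed Dlk1 most closely over the 10 arrays, among 4698 genes with group means at least 1 log2 unit apart, were Cysltr1 (Pearson r = 0.962), Gpx8 (r = 0.961) and Ssbp2 (r = 0.959). These correlations describe 10 arrays in 5 groups and carry no test.

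Cdkn1c encodes p57, an inhibitor of cyclin-dependent kinases that restrains cell division, and is expressed from the maternal copy. Its only probe, at chr7:139886128-139886187 on mm7 (minus strand), read 4.42 and 4.12 in NT (4.27 ± 0.22), 3.89 and 3.96 in Ino80 (3.93 ± 0.05), 4.33 and 4.36 in Ino80b (4.34 ± 0.02), 5.14 and 5.10 in Ino80c (5.12 ± 0.03) and 4.41 and 4.11 in Ino80e (4.26 ± 0.21). Both Ino80c arrays lay above all other arrays, and NT, Ino80b and Ino80e overlapped. Cdkn1c rose 1.81-fold in the Ino80c knockdown (0.85 ± 0.16, adjusted p = 0.0317). Its log2 fold change was -0.34 ± 0.16 in Ino80 (adjusted p = 0.184), 0.07 ± 0.16 in Ino80b and -0.01 ± 0.16 in Ino80e.

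Within slide 3, Cdkn1c stood 1.81-fold above Ino80e in Ino80c, a log2 difference of 0.86 ± 0.16 with a 95% interval from 0.49 to 1.23 that missed the threshold (adjusted p = 0.111). It passed with the values of the authors' deposited table (0.86, adjusted p = 0.0309). The means of NT and Ino80e were close (4.27 and 4.26), so Ino80c differed from both by about the same. The part of the slide in the difference from NT was not tested. The call against NT was lost after quantile normalization (0.67, adjusted p = 0.0514) and median scaling (0.61, adjusted p = 0.102). It was also lost without NT replicate 2 (0.70, adjusted p = 0.124), Ino80c replicate 1 (0.83, adjusted p = 0.152), Ino80c replicate 2 (0.87, adjusted p = 0.129), either Ino80b replicate (0.85, adjusted p = 0.0633) or either Ino80e replicate (0.85, adjusted p = 0.055).

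Of 6 genes taken as neighbours of Cdkn1c in its cluster, Kcnq1ot1, Phlda2, Slc22a18, Ascl2, Kcnq1 and Cd81, limma called 0 in every knockdown. Osbpl5 of the same cluster, described with the other imprinted genes, was called in Ino80 and Ino80c. Tnfrsf23 of this cluster passed the filter on dim probes through Ino80c alone, where it was highest, so its calls there are not set beside these. Kcnq1ot1, the paternally expressed noncoding RNA that silences the cluster on its own chromosome, read -0.51 and -1.54 in NT and between -0.47 and -0.03 on all knockdown arrays, with log2 fold changes from 0.65 to 0.96 and adjusted p-values from 0.0943 to 0.204. The NT arrays lay below all knockdown arrays and differed from each other by more than the knockdown arrays did. Phlda2, a maternally expressed gene that limits placental growth, was at -0.02 ± 0.20 and 0.21 ± 0.20 in Ino80 and Ino80b and at 0.63 ± 0.20 and 0.66 ± 0.20 in Ino80c and Ino80e. The potassium channel gene Kcnq1 was at 0.53 ± 0.27, 0.31 ± 0.27, 0.97 ± 0.27 and 0.88 ± 0.27 in the same order. Slc22a18, Ascl2 and Cd81 had log2 fold changes between -0.64 and 0.32.

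Igf2, the paternally expressed insulin-like growth factor of the fetus, shares enhancers with H19, a maternally expressed noncoding RNA, and a methylated control region between them decides which of the pair is used on each chromosome. Its brighter probe, printed on 10 spots at chr7:139078075-139078135 (mm7, minus strand), read -0.47 and -0.10 in NT (-0.28 ± 0.26), 0.32 and 0.39 in Ino80 (0.36 ± 0.05), 0.45 and 0.26 in Ino80b (0.35 ± 0.14), 0.18 and 0.08 in Ino80c (0.13 ± 0.07) and -0.50 and -0.11 in Ino80e (-0.30 ± 0.27). The Ino80, Ino80b and Ino80c arrays lay above both NT arrays, and the Ino80e arrays overlapped them. The log2 fold changes were 0.64 ± 0.19 in Ino80 (adjusted p = 0.0638), 0.64 ± 0.19 in Ino80b (adjusted p = 0.0794), 0.42 ± 0.19 in Ino80c (adjusted p = 0.179) and -0.02 ± 0.19 in Ino80e, so Igf2 was not called. The Ino80 value passed in a fit of the authors' deposited table (0.58, adjusted p = 0.0367). It also passed with a replicate block, a term for the replicate number (0.64, adjusted p = 0.0474). After normexp background correction the values of Ino80 (0.60, adjusted p = 0.0249) and Ino80b (0.58, adjusted p = 0.0332) passed. The second probe of Igf2 gave 0.35 ± 0.24, 0.16 ± 0.24, 0.01 ± 0.24 and -0.58 ± 0.24, lower in each knockdown than the brighter one.

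H19 stood at -4.18 and -3.66 in NT (-3.92 ± 0.37), -3.50 and -3.73 in Ino80, -3.51 on both Ino80b arrays, -4.02 and -3.56 in Ino80c, and -3.64 and -3.66 in Ino80e. The arrays of Ino80, Ino80c and Ino80e overlapped the NT arrays. Its log2 fold changes ran from 0.12 to 0.40 with a standard error of 0.22, and on its second probe from 0.14 to 0.51 with a standard error of 0.20, and none was called. H19 was well above background on all 10 arrays. Ins2, the neighbour of Igf2 that encodes insulin 2, rose in the Ino80 knockdown (0.62 ± 0.14, adjusted p = 0.0295) and was at 0.46 ± 0.14, 0.54 ± 0.14 and 0.29 ± 0.14 in Ino80b, Ino80c and Ino80e.

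Igf2r encodes the receptor that carries IGF2 to the lysosome for degradation and is expressed from the maternal copy. It read 1.65 and 1.59 in NT (1.62 ± 0.04), 2.01 and 2.35 in Ino80, 1.73 and 1.97 in Ino80b, 1.74 and 2.16 in Ino80c and 1.93 and 2.14 in Ino80e. All knockdown arrays lay above both NT arrays, yet the estimates of 0.56 ± 0.20, 0.23 ± 0.20, 0.33 ± 0.20 and 0.41 ± 0.20 were not called, with adjusted p-values from 0.105 to 0.483. The Ino80 value of Igf2r passed with a replicate block (0.56, adjusted p = 0.0348). Airn, the paternally expressed antisense RNA that silences the cluster of Igf2r, was well above background on both arrays only in Ino80, at -5.02 and -5.13. The NT arrays read -6.95 and -6.11, and 1 of them was well above background. Airn passed the filter on dim probes through Ino80 alone, the group where it was highest, so this difference is given with no test. Of the other genes of this cluster, Slc22a2 and Slc22a3 were on the array and were not bright enough to be tested. Of 13 tested genes of the IGF axis, which held receptors, binding proteins and signalling adaptors other than Igf2 and Igf2r, only Irs1 was called, and in Ino80e limma called 0 with 2 at an unadjusted p under 0.05. Beside this 1 of 13, 12.3%, 6.44% and 6.28% of all genes were called in Ino80, Ino80b and Ino80c. Irs1, an adaptor that relays insulin and IGF receptor signals, rose in Ino80 (0.79 ± 0.15, adjusted p = 0.0188), Ino80b (0.83 ± 0.15, adjusted p = 0.0287) and Ino80c (1.0 ± 0.15, adjusted p = 0.025) and was at 0.68 ± 0.15 in Ino80e (adjusted p = 0.0804).

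Peg10 and Peg3, both paternally expressed, had the lowest estimates among the 10 genes in every knockdown. Peg10 derives from a retrotransposon and is needed for the placenta. Its single probe, at chr6:4712753-4712812 (mm7, plus strand), read -2.83 and -2.63 in NT (-2.73 ± 0.14), -3.07 and -3.79 in Ino80 (-3.43 ± 0.52), -3.18 and -3.40 in Ino80b (-3.29 ± 0.15), -3.84 and -3.86 in Ino80c (-3.85 ± 0.01) and -3.87 and -4.58 in Ino80e (-4.23 ± 0.51). Every knockdown array lay below both NT arrays. The log2 fold changes were -0.70 ± 0.30 in Ino80 (adjusted p = 0.16), -0.56 ± 0.30 in Ino80b (adjusted p = 0.257), -1.12 ± 0.30 in Ino80c (adjusted p = 0.0669) and -1.50 ± 0.30 in Ino80e (adjusted p = 0.0755), and none was called. The values of Ino80c and Ino80e were called with a trended and robust prior (adjusted p = 0.0416 and 0.0371) and in a fit of the authors' deposited table, where they were -0.74 (adjusted p = 0.019) and -0.86 (adjusted p = 0.0368). That table is not background-subtracted, and both Peg10 changes were smaller there, as they were with normexp background correction (-0.67, adjusted p = 0.0175, and -0.64, adjusted p = 0.022). The Ino80c value was also called, and larger, after quantile normalization (-1.33, adjusted p = 0.0453) and median scaling (-1.37, adjusted p = 0.0484). With a replicate block the Ino80c and Ino80e values were called (adjusted p = 0.0382 and 0.0425).

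Sgce, the sarcoglycan gene that is paternally expressed from the same cluster as Peg10, took the opposite direction. It read 0.10 and 0.26 in NT, 1.54 and 2.28 in Ino80, 1.25 and 1.70 in Ino80b, 1.28 and 1.46 in Ino80c and 0.83 and 1.34 in Ino80e, with no overlap between NT and any knockdown. Sgce rose in Ino80 (1.73 ± 0.29, adjusted p = 0.0144) and Ino80b (1.29 ± 0.29, adjusted p = 0.0479) and was at 1.19 ± 0.29 in Ino80c (adjusted p = 0.0568) and 0.91 ± 0.29 in Ino80e (adjusted p = 0.112). Its second probe gave 1.60, 0.98, 1.04 and 0.66. The Sgce calls held in 16 of 19 alternatives for Ino80 and in 7 for Ino80b. The other genes taken as neighbours, Ppp1r9a, Asb4 and Calcr, were not called, with log2 fold changes between -0.08 and 1.12. Pon2 and Pon3 were not among the genes taken as neighbours, and Pon2 rose in Ino80, as described with the other imprinted genes.

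Peg3 encodes a zinc finger protein with roles in growth and maternal behaviour. Its brightest probe, at chr7:6266913-6266972 (mm7, minus strand), read -0.93 and -1.32 in NT (-1.12 ± 0.28), -1.72 and -2.27 in Ino80 (-2.0 ± 0.39), -1.25 and -2.04 in Ino80b (-1.64 ± 0.56), -1.37 and -1.58 in Ino80c (-1.47 ± 0.15) and -2.11 and -3.04 in Ino80e (-2.58 ± 0.65). The Ino80, Ino80c and Ino80e arrays lay below both NT arrays, and those of Ino80b overlapped them. Replicate 1 read above replicate 2 in every group, and each Ino80b replicate lay below the NT replicate of its number. The log2 fold changes were -0.87 ± 0.39, -0.52 ± 0.39, -0.35 ± 0.39 and -1.45 ± 0.39, with adjusted p-values of 0.173, 0.407, 0.547 and 0.0921. A second probe, at chr7:6265247-6265306, gave -0.73 ± 0.31, -0.32 ± 0.31, -0.36 ± 0.31 and -1.26 ± 0.31. Both read Peg3 lowest with Ino80e siRNA, and neither was called there. The Ino80e value of the brightest probe was called in a fit of the authors' deposited table (-1.31, adjusted p = 0.0411), with a trended and robust prior (-1.45, adjusted p = 0.0415) and after normexp background correction (-1.05, adjusted p = 0.0255). With a replicate block its Ino80 (-0.87, adjusted p = 0.0254) and Ino80e values (-1.45, adjusted p = 0.042) were called.

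The third probe named Peg3, at chr7:6281417-6281475, was well above background on both Ino80 arrays and on no array of the other groups. There Peg3 read -6.10 and -5.73 in Ino80 and -7.27 and -7.15 in NT. The probe passed the filter on dim probes through Ino80 alone, so this difference had to favour Ino80 and is given with no test. Usp29, which is paternally expressed from the promoter region shared with Peg3, varied widely in NT (-3.69 and -5.33) and was at 0.64 ± 0.59, 0.52 ± 0.59, 0.81 ± 0.59 and 1.13 ± 0.59, not called. Zim1, the maternally expressed neighbour, was on the array and was not bright enough to be tested.

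**Figure D3:**
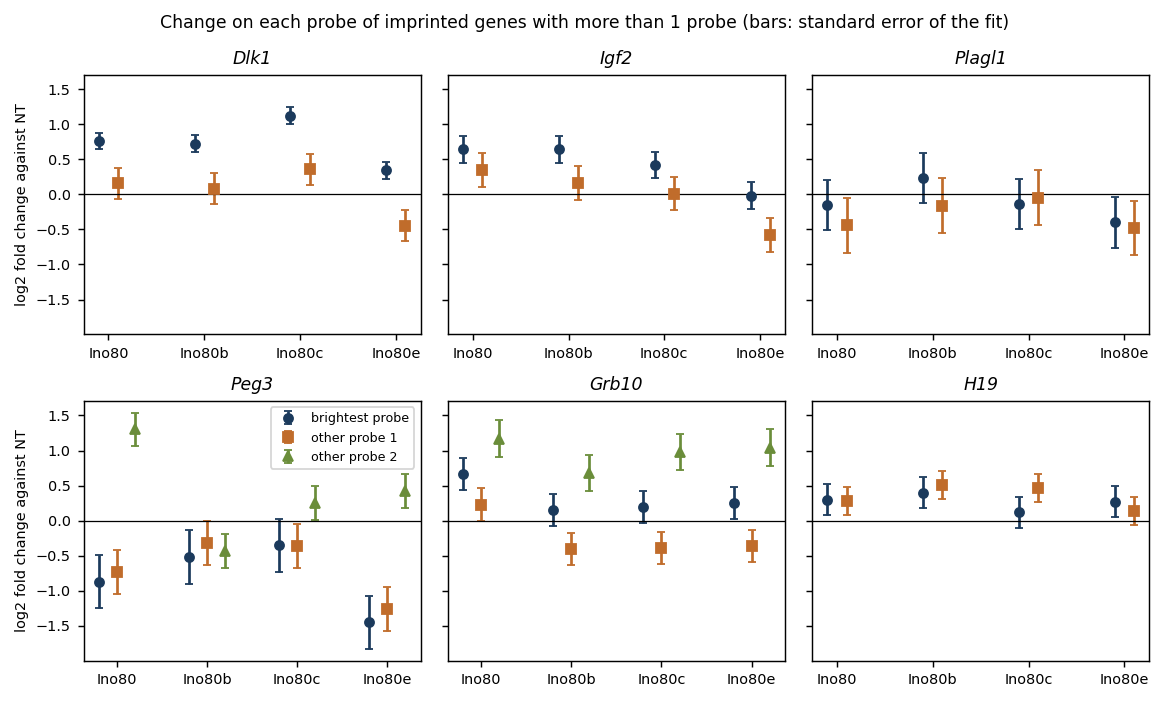
Each panel shows 1 of the 6 imprinted genes with more than 1 probe, with the log2 fold change against NT on the vertical axis, the 4 knockdowns on the horizontal axis, a symbol for each probe and its standard error as a bar. The Dlk1 probes differ in every knockdown, the third Peg3 probe was well above background in Ino80 alone and passed the filter through that group, and the third Grb10 probe lies above the other ones in all 4.

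Grb10 encodes an adaptor that dampens insulin and IGF receptor signalling, and is maternally expressed in most tissues and paternally in neurons. Its brightest probe, at chr11:11882970-11883029 (mm7, minus strand), read 3.44 and 3.91 in NT (3.68 ± 0.33), 4.22 and 4.46 in Ino80, 3.71 and 3.95 in Ino80b, 3.62 and 4.12 in Ino80c and 3.90 and 3.97 in Ino80e. Only the Ino80 arrays lay above both NT arrays, and the estimate there was 0.66 ± 0.23 (adjusted p = 0.099), against 0.15 to 0.25 in the other knockdowns. The Ino80 value passed after normexp background correction (0.67, adjusted p = 0.039) and with the mean over probes (0.69, adjusted p = 0.0498). It also passed with a trended and robust prior (adjusted p = 0.0442) and with a replicate block (adjusted p = 0.0212). A second probe, at chr11:11885585-11886233, gave 0.23 ± 0.23, -0.40 ± 0.23, -0.39 ± 0.23 and -0.36 ± 0.23. The third, at chr11:11922579-11922638, read -2.37 and -3.07 in NT, -1.73 and -1.37 in Ino80, -2.18 and -1.89 in Ino80b, -1.88 and -1.59 in Ino80c and -1.74 and -1.60 in Ino80e, all knockdown arrays above both NT arrays. On it Grb10 rose in Ino80 (1.17 ± 0.26, adjusted p over all probes = 0.0327) and was at 0.68 ± 0.26, 0.98 ± 0.26 and 1.04 ± 0.26 in Ino80b, Ino80c and Ino80e (adjusted p = 0.138, 0.0689 and 0.087). The probes of Grb10 thus gave estimates on both sides of 0 in the Ino80b, Ino80c and Ino80e knockdowns.

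Mest, a paternally expressed gene of the alpha/beta hydrolase fold family that marks growing mesoderm and adipose tissue, read 4.07 and 3.47 in NT (3.77 ± 0.42), 4.16 and 4.18 in Ino80, 4.31 and 4.21 in Ino80b, 4.55 and 4.33 in Ino80c and 4.25 on both Ino80e arrays. All knockdown arrays lay above both NT arrays, and the estimates of 0.40 ± 0.20, 0.49 ± 0.20, 0.67 ± 0.20 and 0.48 ± 0.20 were not called (adjusted p = 0.218, 0.157, 0.0824 and 0.167). Without NT replicate 1 Mest passed in Ino80 (0.70, adjusted p = 0.0328), Ino80b (0.79, adjusted p = 0.029) and Ino80c (0.96, adjusted p = 0.021). With all arrays the Ino80c value passed after normexp background correction (0.65, adjusted p = 0.0286) and with a trended and robust prior (0.67, adjusted p = 0.0373). It passed with a replicate block too (0.67, adjusted p = 0.0463). The neighbours Copg2 and Klf14 were not called, at 0.44 ± 0.34 and 0.87 ± 0.45 in Ino80 and at lower estimates elsewhere. Plagl1, a paternally expressed zinc finger transcription factor, read 0.51 and 0.27 in NT (0.39 ± 0.17), 0.71 and -0.21 in Ino80, 0.88 and 0.37 in Ino80b, 0.50 and 0.01 in Ino80c and 0.29 and -0.31 in Ino80e. Its replicates differed by up to 0.65 (SD), and replicate 1 read above replicate 2 in every group. Every group overlapped NT, and no estimate of either probe was called.

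The factors that set and hold imprints were followed on a list of 24 genes, of which 23 were tested. In the Ino80 knockdown 3 rose and 4 fell (beside 12.3% of all genes called), in Ino80b 2 rose and 2 fell (beside 6.44%), and in Ino80c 3 rose and 2 fell (beside 6.28%), and limma called 0 in Ino80e, where 8 had an unadjusted p under 0.05. Zfp57, which holds imprints through its DNA motif, read 1.59 and 1.95 in NT, -0.60 and -1.32 in Ino80, -0.30 and -0.81 in Ino80b, 0.0 and -0.28 in Ino80c and 0.56 and 0.30 in Ino80e, with every knockdown array below both NT arrays. It fell 6.62-fold in Ino80 (-2.73 ± 0.29, adjusted p = 0.0041), 5.01-fold in Ino80b (-2.33 ± 0.29, adjusted p = 0.0142) and 3.76-fold in Ino80c (-1.91 ± 0.29, adjusted p = 0.0252), and was at -1.34 ± 0.29 in Ino80e (adjusted p = 0.0804). These calls held in 18, 15 and 12 of 19 alternatives. Its partner Trim28 fell in Ino80 (-0.84 ± 0.17, adjusted p = 0.0232) and was at -0.54, -0.65 and -0.50 elsewhere.

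Tet2, an oxidase of methylated cytosine, fell in Ino80, Ino80b and Ino80c, by 1.84, 1.60 and 0.90 on the log2 scale, and was at -0.07 ± 0.17 in Ino80e. The de novo DNA methyltransferase gene Dnmt3b rose in the same knockdowns (0.69 ± 0.11, 0.55 ± 0.11 and 0.70 ± 0.11), and Dnmt3a rose in Ino80c (0.95 ± 0.22, adjusted p = 0.0483). The other probes of Dnmt3a gave 0.55 and 0.42 in Ino80c and were not called. Smchd1, a chromatin protein required for silencing at several imprinted clusters, rose in the same 3 as Dnmt3b (0.99 ± 0.20, 0.92 ± 0.20 and 0.96 ± 0.20), although its other probes gave -0.36 to 0.56 there. Dppa3, which shields methylation in the early embryo, rose in Ino80 (1.42 ± 0.37, adjusted p = 0.0492), and the Polycomb gene Eed fell there (-0.54 ± 0.12, adjusted p = 0.0367). Of 19 alternatives, the Tet2 calls held in 18, 15 and 10, those of Dnmt3b in 15, 6 and 8 and those of Smchd1 in 14, 8 and 8. The Dnmt3a call held in only 4, that of Dppa3 in 6 and that of Eed in 8.

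The promoters of the imprinted genes were searched for the ZFP57 motif TGCCGC because Zfp57 fell in 3 knockdowns. RefSeq start sites on GRCm38.p6 gave 13 windows of 250 bases before the start for 7 of the 10 genes, and Cdkn1c, H19 and Peg10 had no entry. On either strand the motif was in 3 of the 13 windows, 2 overlapping ones of Mest and 1 of Plagl1, beside 8.68% of 32851 promoter windows of all genes. GCCATNTT, a motif of YY1, a zinc finger protein known to work with INO80, was in 0 of the 13 windows and in 3.91% of all windows. The windows of Dlk1 (chr12:109452573-109452822), Mest (chr6:30737800-30738049) and Plagl1 (chr10:13090582-13090831), all on the plus strand, are shown as the gene of the 10 with the most calls and the genes that carry the motif. Capitals mark the ZFP57 motif, read here as its reverse complement.
Dlk1: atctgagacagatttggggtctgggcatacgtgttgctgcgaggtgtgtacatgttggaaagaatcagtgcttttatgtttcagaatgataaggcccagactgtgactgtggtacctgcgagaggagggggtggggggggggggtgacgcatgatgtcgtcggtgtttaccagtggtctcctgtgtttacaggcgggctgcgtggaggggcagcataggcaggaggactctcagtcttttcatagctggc
Mest: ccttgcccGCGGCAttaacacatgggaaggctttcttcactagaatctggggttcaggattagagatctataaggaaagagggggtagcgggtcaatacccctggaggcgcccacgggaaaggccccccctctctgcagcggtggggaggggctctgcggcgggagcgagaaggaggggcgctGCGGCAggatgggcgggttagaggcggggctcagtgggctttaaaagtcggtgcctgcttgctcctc
Plagl1: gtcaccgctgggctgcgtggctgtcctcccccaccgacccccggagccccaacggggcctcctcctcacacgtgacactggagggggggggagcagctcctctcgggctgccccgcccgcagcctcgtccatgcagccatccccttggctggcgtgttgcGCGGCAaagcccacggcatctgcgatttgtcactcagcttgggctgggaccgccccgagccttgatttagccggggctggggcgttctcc
The Dlk1 window held 8 CpG sites and no copy of the motif, the Mest window 14 CpG sites and 2 copies, and the Plagl1 window 19 CpG sites and 1 copy, against a median of 6 CpG sites over all windows. Mest and Plagl1, whose windows carry the motif, were not called in any knockdown in the main fit, and Mest passed under some alternatives. A part of ZFP57 in their levels was not tested. A match is a description of these letters only, and the control regions of several of these genes, such as Dlk1 and Igf2, lie outside such windows.

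Other imprinted genes were taken from a list of 65 names, of which 56 were tested. In Ino80, 8 rose and 2 fell (beside 12.3% of all genes called), in Ino80b 4 rose and 1 fell (beside 6.44%), in Ino80c 6 rose and none fell (beside 6.28%), and limma called 0 in Ino80e, where 15 had an unadjusted p under 0.05. Their median log2 fold changes were 0.37, 0.25, 0.40 and 0.22, against 0.17, 0.13, 0.25 and 0.19 over all genes. Among paternally expressed genes, Magel2, a regulator of endosomal protein sorting, rose in Ino80b (0.95 ± 0.15) and Ino80c (0.74 ± 0.15), Impact, a translational regulator, rose in Ino80b (0.65 ± 0.15), Zdbf2 rose in Ino80 (0.75) and the signalling adaptor gene Gab1 fell there (-0.77). Among maternally expressed genes, Osbpl5, which encodes a lipid transfer protein, rose in Ino80 (1.21 ± 0.20) and Ino80c (0.91 ± 0.20), and Pon2, a paraoxonase, rose in Ino80 (0.91 ± 0.15). Tnfrsf23, a decoy receptor, was not well above background on either NT array and was at least 1.55-fold higher in Ino80, where 1 array measured it, and at least 1.98-fold higher in Ino80c, the one group with both arrays well above background, through which it passed the filter. Its calls are counted among the 8 rises in Ino80 and the 6 in Ino80c, although the filter chose it by its level in Ino80c. These calls of Tnfrsf23 held in only 4 of 19 alternatives for Ino80 and 6 of 19 for Ino80c. The log2 fold changes fell to 0.06 in Ino80 with normexp background correction and to 0.22 in Ino80c in a fit of the authors' deposited table. Ampd3, an AMP deaminase, fell in Ino80 (-1.87 ± 0.35) and Ino80b (-2.31 ± 0.35), although its second probe gave -0.12 and -0.31.

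The largest rise of an imprinted gene outside the 10 was that of Dcn, which encodes the matrix proteoglycan decorin. Dcn read -5.23 and -5.13 in NT, -2.95 and -2.82 in Ino80, -3.99 and -3.57 in Ino80b, -2.65 and -3.55 in Ino80c and -4.24 and -4.78 in Ino80e, with no overlap between NT and any knockdown. It rose in Ino80 (2.30 ± 0.32, adjusted p = 0.0085), Ino80b (1.40 ± 0.32, adjusted p = 0.0491) and Ino80c (2.08 ± 0.32, adjusted p = 0.0255) and was at 0.67 ± 0.32 in Ino80e. The size of the Dcn change depended on the background correction: with normexp it was 0.95, 0.59 and 0.91 in Ino80, Ino80b and Ino80c, and in a fit of the authors' deposited table it was 1.01, 0.47 and 0.82. The Ino80b call of Dcn held in only 4 of 19 alternatives, and those of Ino80 and Ino80c in 17 and 14. Dcn is imprinted in the placenta and is also a typical product of fibroblasts.

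**Figure D4:**
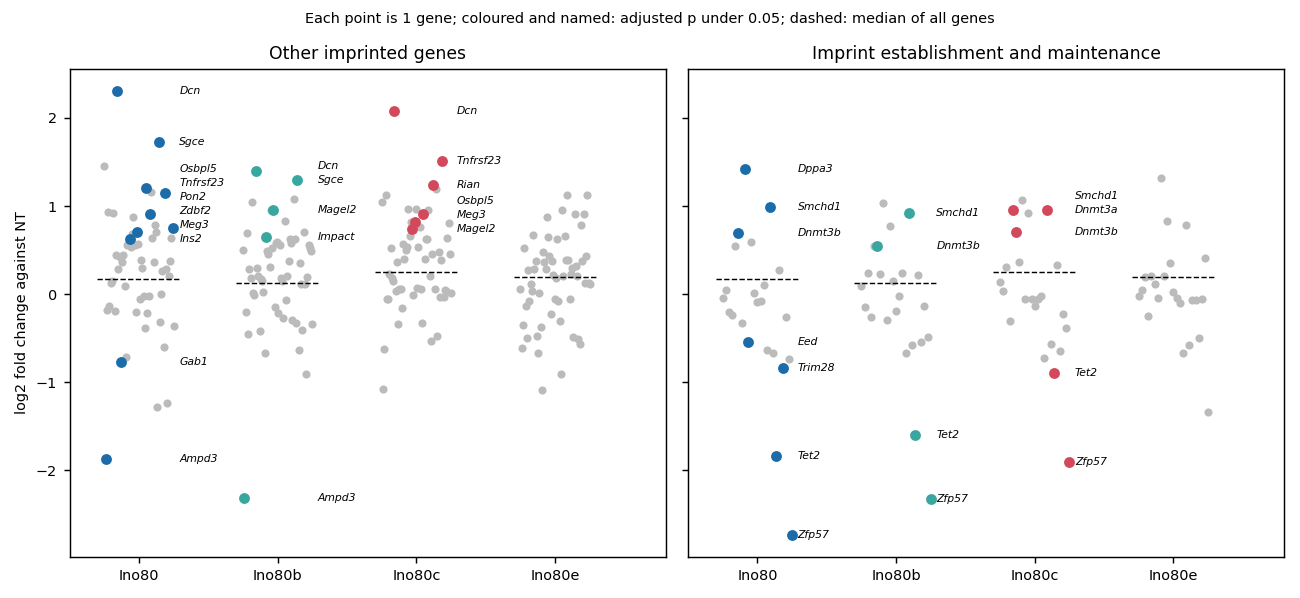
Each point is 1 gene of the list of other imprinted genes (left) or of imprint establishment and maintenance (right), with its log2 fold change against NT on the vertical axis and the 4 knockdowns on the horizontal axis. Genes with an adjusted p under 0.05 are coloured and named, and the dashed line is the median of all genes. Dcn and Sgce are the highest named imprinted genes in Ino80 and Ino80b, Zfp57 is the lowest of its list in all 4 knockdowns, and none is named in Ino80e.

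Markers of cell types also changed in some knockdowns, and their part in the changes of the imprinted genes was not tested. Of 9 pluripotent stem cell markers, 3 fell in Ino80, 3 in Ino80b and 2 in Ino80c, beside 4.76%, 2.68% and 1.59% of all genes. All 9 were well above background on every array. The summed linear level of a list relative to the 75th percentile was, for these 9 markers, 594 and 626 in NT, 409 and 498 in Ino80, 496 and 580 in Ino80b, 583 and 573 in Ino80c and 649 and 725 in Ino80e. Such a sum is set mainly by its brightest genes, here Dppa5a (mean 8.44 in NT) and Zfp42 (6.98). In Ino80e, where the sum lay above NT, 4 of the 9 markers had estimates above 0, with a median of -0.30. Of 12 tested primitive endoderm markers, 10 fell in Ino80, 8 in Ino80b and 3 in Ino80c, beside 4.76%, 2.68% and 1.59% of all genes. Among them Ttr passed the filter on dim probes through NT alone, where it was highest, so the filter favoured its estimates below 0. Sums over 14 listed genes were 13.3 and 12.2 in NT, 7.37 and 6.60 in Ino80, 9.06 and 7.21 in Ino80b, 9.97 and 11.0 in Ino80c and 12.5 and 12.8 in Ino80e. Apoa1 and Afp were not well above background in any group.

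Of 11 tested trophoblast markers, 5 rose in Ino80 and 2 in Ino80c, beside 7.49% and 4.69% of all genes. Sums over 13 genes were 21.1 and 25.7 in NT, 49.7 and 66.1 in Ino80, 33.0 and 39.1 in Ino80b, 27.5 and 27.3 in Ino80c and 28.5 and 37.8 in Ino80e. No array had Elf5, a defining marker of trophoblast stem cells, well above background. The sum was set mainly by the keratin genes Krt18 (mean 3.48 in NT and 5.15 in Ino80) and Krt8 (3.04 and 4.06). In Ino80, 8 of the 11 had estimates above 0, and Tfap2c, Hand1 and Plet1 did not. Of 15 tested fibroblast markers, 5 rose in Ino80, 1 in Ino80b and 2 in Ino80c, beside 7.49%, 3.76% and 4.69% of all genes. Sums over 18 genes were 33.7 and 31.7 in NT, 41.0 and 39.6 in Ino80, 32.5 and 26.7 in Ino80b, 32.6 and 28.0 in Ino80c and 26.3 and 23.6 in Ino80e. No array had Fap well above background. Acta2 (mean 4.49 in NT and 4.10 in Ino80) and Tagln (2.81 and 4.24) made up most of the fibroblast sum. In Ino80c, 13 of the 15 tested fibroblast markers had estimates above 0, with a median of 0.38 beside 0.25 over all genes. In Ino80, 12 of them did, with a median of 0.68 beside 0.17. Among them Postn passed the filter on dim probes through Ino80c alone and Prrx1 through Ino80 alone. Each was highest in that group, so the filter favoured its estimate above 0 there. Estimates in Ino80c were also above 0 for 7 of 8 neural, 8 of 9 mesoderm and muscle and 7 of 11 trophoblast markers. They were above 0 for 3 of 9 pluripotent and 1 of 12 primitive endoderm markers. Of 8 tested neural markers, 2, 1 and 1 rose in Ino80, Ino80b and Ino80c, beside the same shares of all genes as for the fibroblast markers. Sums over 10 genes were 7.73 and 9.16 in NT, 10.2 and 13.4 in Ino80 and 8.30 to 10.1 in the other knockdowns. Of 9 tested mesoderm and muscle markers limma called 0 in each knockdown, with 2, 0, 0 and 2 at an unadjusted p under 0.05, and their sums over 11 genes lay between 0.759 and 1.04 on all arrays.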

How the data were processed

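Total RNA of 10 samples (2 per siRNA group) was measured on 10 Agilent 4x44K arrays. The labels name the dye Cy5, whereas the deposited files hold the green channel. Per the file headers, Feature Extraction 9.5.3.1 made the deposited intensity values, and the processed signal is corrected for background on its own array and carries no scaling to other arrays. The table of values the authors deposited is on the log2 scale: it equalled the log2 mean signal plus 1 constant per array, with column medians from 6.76 to 6.87. The sources used here do not give the origin of these constants, and so the scaling between arrays is unknown.

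Control spots and flagged outlier spots were left out, spots of a probe were averaged, and the log2 75th percentile over non-control spots was subtracted. A probe was kept where some group had it well above background on both of its arrays (29587 of 41174), and no spot was saturated. All 18 probes of the 10 genes were kept, and the probe that stands for each of the 10 genes was well above background on all 10 arrays. Probes were named through accessions in RefSeq (GRCm38.p6, 22951 probes), otherwise by the array's design. Whether a probe lies in a coding exon or a UTR was not determined, since no mm7 annotation was used here.

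A linear model of limma 3.58.1 (R 4.3.3, moderated by eBayes) was fitted with group as its only term to all 10 arrays (5 residual and 2.23 prior degrees of freedom). P-values are two-sided and adjusted by Benjamini-Hochberg over 20661 genes. Other probes were tested in the same fit over all kept probes. The script was tested on simulated data. The members and lists were chosen with earlier results of these data known. All 10 genes are named, with the called genes of each list (at most 8) and the neighbours of each gene in its cluster. Alternatives covered background correction, scaling, the authors' table, the filter, the choice of probe, the arrays in the fit, the prior, a replicate block and each array left out.

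Replicate numbers are shared between groups, but deviations of same-numbered arrays correlated between 0.0 and 0.32, not above 0.1 in every pair, so the numbers were not taken as pairs.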

Additional observations from a re-analysis of the deposited data

How the results depend on the processing

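Over the 10 imprinted genes and 6 comparisons, 1050 values under alternatives kept their side of the threshold and either their sign or a distance under 1 standard error from the reported value. Of the rest 39 newly passed, 30 no longer passed, 21 changed sign without being called, and none of the called ones changed direction. The 4 calls and the 40 calls of named genes of the other lists kept their direction under all 19 alternatives, of which those for the other lists were chosen after seeing the data. Of these 40, 23 no longer passed with median scaling, 28 without the filter, 13 with the mean over probes, 35 without NT replicate 2 and 40 in fits of only the 4 arrays compared, where no gene was called in any comparison.

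The number of imprinted genes called against NT was 3, 2, 4 and 2 in Ino80, Ino80b, Ino80c and Ino80e with normexp background correction and also with a trended and robust prior, and 2 in Ino80c versus Ino80e with both. With the authors' deposited values it was 2 in Ino80, 2 in Ino80e and 2 in Ino80c versus Ino80e. With median scaling it was 0 in Ino80 and in Ino80b. Without a filter it was 0 in Ino80b and 1 in Ino80c, with the mean over probes 0 in Ino80b, and in fits of only the 4 arrays compared 0 in Ino80, Ino80b and Ino80c. With the replicate block it was 5 in Ino80, 1 in Ino80b, 4 in Ino80c, 2 in Ino80e and 1 in Ino80c versus Ino80e. In the same order 4888, 3592, 3712, 1973 and 304 genes were called in all. The main fit did not take the replicate numbers as pairs, although deviations of same-numbered arrays correlated by up to 0.32. When each array was left out in turn, the number ranged from 0 to 2 in Ino80, from 0 to 2 in Ino80b, from 0 to 3 in Ino80c and stayed at 0 in Ino80e and within slides.

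The number of genes called in all moved by over 1.5 times with normexp background correction (3834, 3295, 4230 and 5155 against NT), with the authors' deposited values (2329 in Ino80b, 2220 in Ino80c, 1107 in Ino80e), with the prior (2830 in Ino80b, 2529 in Ino80c, 1701 in Ino80e), with median scaling (1537, 687 and 531) and without a filter (1285, 252 and 142). Without NT replicate 2 it was 832 in Ino80, 36 in Ino80b and 11 in Ino80c, and without NT replicate 1 it was 3296, 2856 and 3142. Without Ino80 replicate 2 it was 560 in Ino80, without either Ino80b replicate 0 or 1 in Ino80b and 297 in Ino80c, without either Ino80c replicate 1 or 0 in Ino80c and 403 in Ino80b, and without either Ino80e replicate 363 in Ino80b and 189 in Ino80c. In Ino80 it was 1533, 1613 and 1544 without either replicate of Ino80b, Ino80c and Ino80e. The causes were not tested.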
